A study of Mus musculus with 5 samples.

Results

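Cytotoxic lymphocytes kill target cells by releasing granules or by engaging death receptors. Perforin (Prf1) opens the target membrane, granzymes (Gzma, Gzmb, Gzmk) are serine proteases that enter through it, and Nkg7 is a membrane protein of the granule. Fas ligand (Fasl) triggers death through Fas, Ifng encodes interferon-gamma, Eomes and Tbx21 (T-bet) are T-box transcription factors that drive this program, and Klrg1 is an inhibitory receptor of differentiated effector cells. In kidneys with lupus nephritis, CD8 T cells and natural killer (NK) cells are among the infiltrating lymphocytes. These 10 genes, of 27998 in the count tables, were taken by symbol and described in kidney T and NK cells.

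The libraries were 10x Genomics droplet profiles of kidneys from 5 C57BL/6j mice, all given pristane, an oil that brings on a disease resembling lupus. Saline was given to 2 mice, and 3 mice received a faecal microbiota transplant (FMT) whose donors were MRL/MpJ mice. Mouse age, sex and time after treatment were not given in the sources used here. Title codes differ between groups, with C and D for saline and B for FMT, so a batch that follows them and the treatment cannot be told apart. The labels give 1 library per mouse and name renal tubular epithelial cells, but lymphocytes were present in every library. The libraries held 15333445 to 45309178 UMIs (unique molecular identifiers, 1 per captured transcript), and 21708 cells were kept, 2793 to 5993 per mouse. Between 2 and 7 cell barcodes were shared by any pair of libraries.

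T cells had at least 2 UMIs of Cd3d, Cd3e and Cd3g together, and 2886 cells met this. CD8 T cells had Cd8a or Cd8b1 and no Cd4 (1224 cells, 99 to 492 per mouse), and CD4 T cells had Cd4 and neither Cd8 gene (635 cells, 44 to 168 per mouse). A further 997 T cells had none of these UMIs and 30 had both kinds. NK cells had Ncr1 or Klre1 and no Cd3 UMI (175 cells, 17 to 66 per mouse). Of genes outside the rule, Klrb1c was found in 52.9% to 81.8% of NK cells per mouse, Tyrobp in 58.8% to 91.2% and Fcer1g in 64.7% to 87.9%, and of 6 T cell genes Cd5, Trat1 and Themis had 0 UMIs there. The other T cell genes were present, Cd2 in 44% to 55.9% and Lck in 47.1% to 60% of NK cells per mouse, both also known in NK cells, and Cd28 in 0% to 9.09%. RNA of proximal tubule cells was also present in NK cells, where Miox, Slc34a1 and Lrp2 were detected and Kap had 0 UMIs. Together they summed to 573 and 880 CPM in saline mice and 1062 to 4264 CPM in FMT mice. CPM are the UMIs of a gene scaled to a fixed total of UMIs per gate. Their part in the NK results was tested only by leaving out cells with RNA of other lineages. CD8 T and CD4 T cells were each split into cells with Cxcr6, a chemokine receptor of tissue-dwelling effector cells, and cells with Lef1, a transcription factor of naive and memory cells, leaving out cells with both or neither.

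The granzyme genes lie apart or together in the mouse genome. By GENCODE M21 on GRCm38 (mm10), Gzma spans 113093825 to 113100981 and Gzmk 113171608 to 113225908 of chromosome 13, both on the minus strand, while Gzmb spans 56258838 to 56262260 of chromosome 14. Prf1 spans 61297833 to 61304680 on the plus strand of chromosome 10. The promoter windows of these genes are shown because Gzma, Gzmb and Prf1 had their highest levels in NK cells and the neighbour of Gzma, Gzmk, had its highest level in CD8 T cells. Each RefSeq window (GRCm38.p6) runs 5′ to 3′ on the gene's strand from 250 bases before to 50 bases after the start annotated by RefSeq. For Gzmk this start lies inside the longer GENCODE span. For Gzmb the start and the whole window lie upstream of the GENCODE span. Capitals mark a T-box core (GTGTGA, or TCACAC on the other strand) or a RUNX core (TGTGGT, or ACCACA). The windows are chr13:113100932-113101231 for Gzma, chr13:113180916-113181215 for Gzmk, chr14:56262285-56262584 for Gzmb and chr10:61297586-61297885 for Prf1.
Gzma: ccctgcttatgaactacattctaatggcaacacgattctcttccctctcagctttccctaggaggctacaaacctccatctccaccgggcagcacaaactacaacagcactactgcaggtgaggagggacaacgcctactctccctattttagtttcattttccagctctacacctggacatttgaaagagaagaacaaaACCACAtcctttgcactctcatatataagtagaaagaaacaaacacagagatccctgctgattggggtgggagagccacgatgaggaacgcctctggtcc
Gzmk: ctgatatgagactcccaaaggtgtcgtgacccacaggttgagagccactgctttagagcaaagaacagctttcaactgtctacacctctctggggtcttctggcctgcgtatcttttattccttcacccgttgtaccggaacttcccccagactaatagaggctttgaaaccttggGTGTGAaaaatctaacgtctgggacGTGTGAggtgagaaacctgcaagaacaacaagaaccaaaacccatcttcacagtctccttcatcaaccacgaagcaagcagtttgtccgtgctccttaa
Gzmb: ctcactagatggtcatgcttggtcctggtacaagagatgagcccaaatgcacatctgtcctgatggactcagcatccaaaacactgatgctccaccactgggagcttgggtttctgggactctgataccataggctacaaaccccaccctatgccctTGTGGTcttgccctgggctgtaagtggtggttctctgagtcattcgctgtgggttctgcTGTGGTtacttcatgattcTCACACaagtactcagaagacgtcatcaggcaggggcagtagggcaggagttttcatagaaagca
Prf1: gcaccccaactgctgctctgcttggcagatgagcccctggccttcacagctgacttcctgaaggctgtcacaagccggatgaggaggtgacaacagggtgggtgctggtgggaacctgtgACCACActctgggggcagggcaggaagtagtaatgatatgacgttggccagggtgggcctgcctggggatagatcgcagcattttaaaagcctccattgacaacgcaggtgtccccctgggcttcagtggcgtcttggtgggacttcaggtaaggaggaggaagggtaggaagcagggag
The Gzmk window held 2 T-box cores and 0 RUNX cores, the Gzmb window 1 T-box core and 2 RUNX cores, and the Gzma and Prf1 windows 1 RUNX core each. Among 9 members with a window, 3 held the T-box core (Gzmb, Gzmk and Nkg7) and 4 the RUNX core (Gzma, Gzmb, Prf1 and Nkg7). Over all 32851 windows of this length, 14.5% held the first and 16.8% the second. A match describes letters in the window and shows no binding.

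Most transcripts of Gzma, Gzmb and Prf1 lay in the few NK cells, whereas of Gzma, Gzmb, Gzmk, Prf1 and Nkg7 together NK cells held 44.3% of 46128 UMIs. NK cells held 63.2% of the 22586 Gzma UMIs of all kept cells, 58.1% of the 4017 Gzmb UMIs and 65.3% of the 518 Prf1 UMIs. CD8 T cells held 78.0% of the 1024 Gzmk UMIs, 67.6% of the 253 Eomes UMIs and 52.4% of the 17983 Nkg7 UMIs. Fasl, Ifng, Tbx21 and Klrg1 were divided more evenly, with 41.0%, 40.5%, 37.1% and 32.6% of their UMIs in CD8 T cells. B cells (with Cd79a and Ms4a1) held at most 0.193% of the UMIs of any member except Tbx21, of which they held 2.73%. In proximal tubule cells, which should lack these genes, a UMI of Gzma was seen in 0.6% to 1.6% of cells per mouse and one of Nkg7 in 0.4% to 1.6%.

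**Figure D1:**
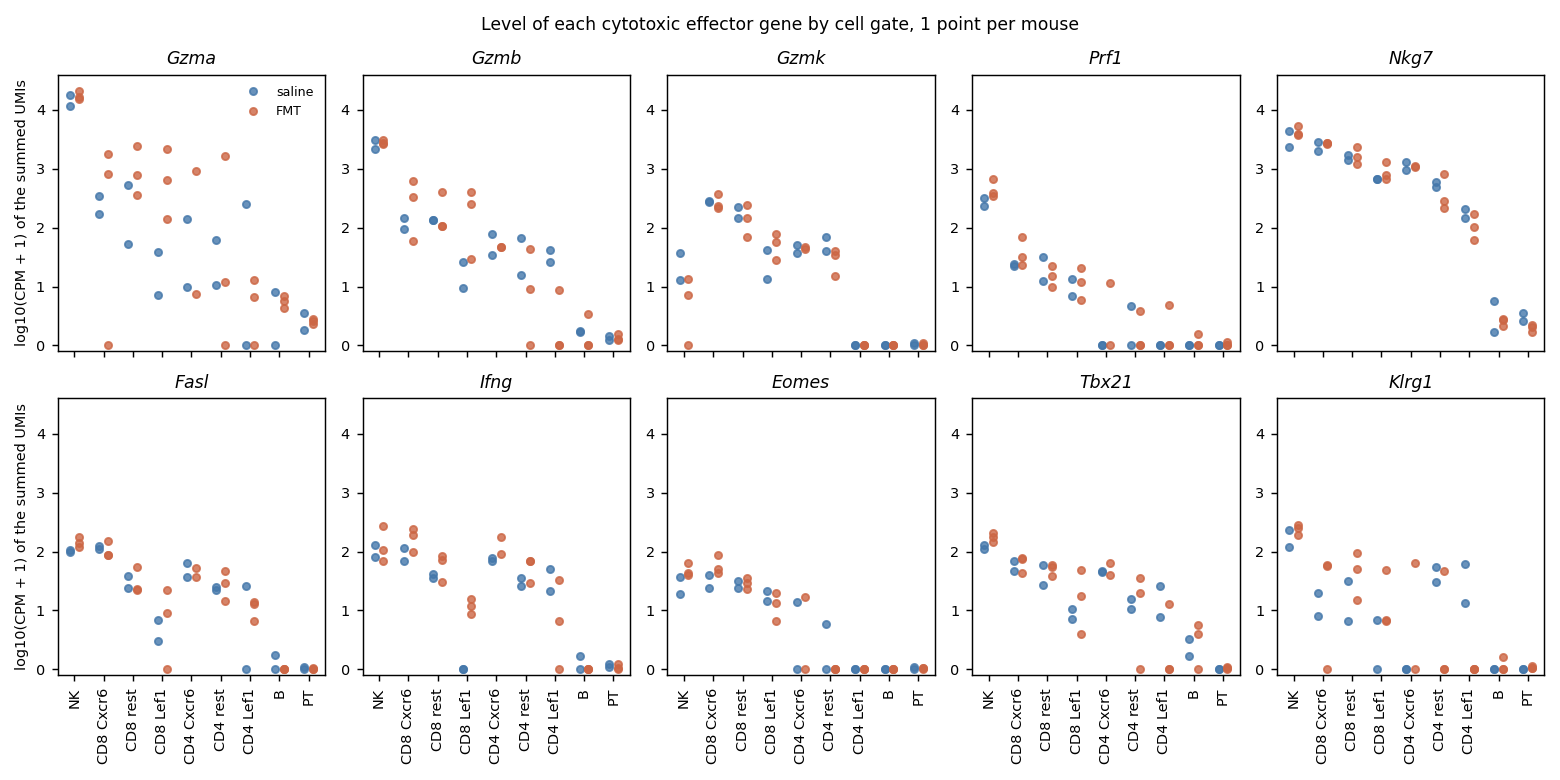
Levels of the 10 genes, as log10(CPM + 1) of the UMIs summed per mouse, in NK cells, in CD8 and CD4 T cells split by Cxcr6 and Lef1 (rest: both or neither), in B cells and in proximal tubule cells (PT); each point is 1 mouse and a gate with under 10 cells is left out. Gzma, Gzmb, Prf1 and Klrg1 were highest in NK cells in all 5 mice, Gzmk was highest in the Cxcr6 CD8 T cells, and the B cell and PT columns lie near the bottom.

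NK cells had more transcript of 8 of the 10 genes than CD8 T cells of the same mice, and less of Gzmk. The background was high, since 28.4% of the 4270 genes tested passed the threshold of an adjusted p under 0.05, 14.9% higher and 13.5% lower in NK cells. Gzma, the most abundant granzyme transcript there, stood at 17680 and 11580 CPM in NK cells of saline mice 1 and 2 and at 15280, 21220 and 16500 CPM in FMT mice 1 to 3. In CD8 T cells the values were 228.6 and 78.2 CPM and 402, 2216 and 516 CPM. The NK values were above the CD8 values in every mouse, and the difference was 5.13 ± 0.424 on the log2 scale (SE, n = 5 mice, edgeR quasi-likelihood test with the mouse as a block, Benjamini-Hochberg adjusted p = 6.29e-07).

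Gzmb followed the same order. It stood at 2139 and 3117 CPM in NK cells of the saline mice and 2645, 3063 and 2780 CPM in those of the FMT mice, against 77.2 and 64.9 CPM and 142, 444 and 152 CPM in CD8 T cells. The log2 difference was 4.04 ± 0.292 (edgeR adjusted p = 1.60e-07). Prf1 stood at 313 and 233 CPM in NK cells of saline mice and 349, 669 and 385 CPM in FMT mice, against 11.2 to 29.6 CPM in CD8 T cells. Its log2 difference was 4.29 ± 0.225 (edgeR adjusted p = 1.31e-08), and no CD8 value reached an NK value for either gene. Prf1 passed the filter on low counts through the NK gate, so the size of its difference is imprecise. The share of all genes without overlap between gates was not counted, here or in the other comparisons of gates.

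Gzmk, a granzyme of effector memory CD8 T cells, went the other way. NK cells held 2, 4, 2, 2 and 0 Gzmk UMIs in saline mice 1 and 2 and FMT mice 1 to 3, whereas CD8 T cells held 116, 140, 228, 258 and 57. In CPM the NK values were 0 to 35.8 and the CD8 values 94.6 to 185.6, so the gates did not overlap. In NK cells Gzmk fell by 3.65 on the log2 scale relative to CD8 T cells (SE 0.336, edgeR adjusted p = 1.92e-06). Gzmk passed the filter on low counts through the CD8 gate, so the size of its difference is imprecise.

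The remaining genes differed less. Nkg7 was 1.11 ± 0.0998 log2 units higher in NK cells (edgeR adjusted p = 1.50e-06) and was also abundant in CD8 T cells, at 1179 to 1874 CPM against 2302 to 5298 CPM. Klrg1 was 2.81 ± 0.335 higher (adjusted p = 2.05e-05), at 116 to 276 CPM against 6.18 to 65.5 CPM. Klrg1 passed the filter on low counts through the NK gate, so the size of its difference is imprecise. Tbx21 was 1.83 ± 0.199 higher (adjusted p = 8.90e-06) and Fasl 1.39 ± 0.195 higher (adjusted p = 9.08e-05), and in both genes every NK value exceeded every CD8 value. Eomes did not pass the test, with 17.9 to 62.8 CPM in NK cells and 22.6 to 32.4 CPM in CD8 T cells (log2 difference 0.46 ± 0.281, adjusted p = 0.253). Ifng was 0.89 ± 0.285 higher (adjusted p = 0.0314), but this call was lost without saline mouse 1 (adjusted p = 0.154), without FMT mouse 2 (0.0712), without FMT mouse 3 (0.137), and with the mouse term left out (0.130).

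All 10 genes were tested in this comparison. Other cytotoxic genes were read from lists, with log2 differences in parentheses. Among receptors, 9 of 11 tested were higher, among them Klrb1c (6.18), Klra9 (5.79) and Klrc2 (4.21), and 1, Cd226, was lower (-1.46). Klra4 had 343 UMIs in NK cells and 0 in CD8 T cells, at least 824-fold higher against a floor of 3 counts over all CD8 T cells. All 4 tested chemokine genes were higher, namely Ccl3 (3.65), Ccl4 (2.61), Ccl5 (1.47) and Xcl1 (1.31). The inhibitors that protect cells from granzymes, Serpinb9 (3.68) and Serpinb6b (2.92), were higher, as was Casp8 (0.56), while Fas was lower (-3.14). Naive and resting T cell genes were lower in 7 of 9, among them Tcf7 (-4.63) and Il7r (-4.32). Ccr7 and S1pr1, also lower, had 3 and 1 UMIs in NK cells against 1589 and 440 in CD8 T cells. Of 9 migration and maturation genes 6 were higher, among them the integrin Itgam (5.07) and the egress receptor S1pr5 (2.59), and 2 were lower, Cd27 (-2.20) and Cxcr3 (-1.91).

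**Figure D2:**
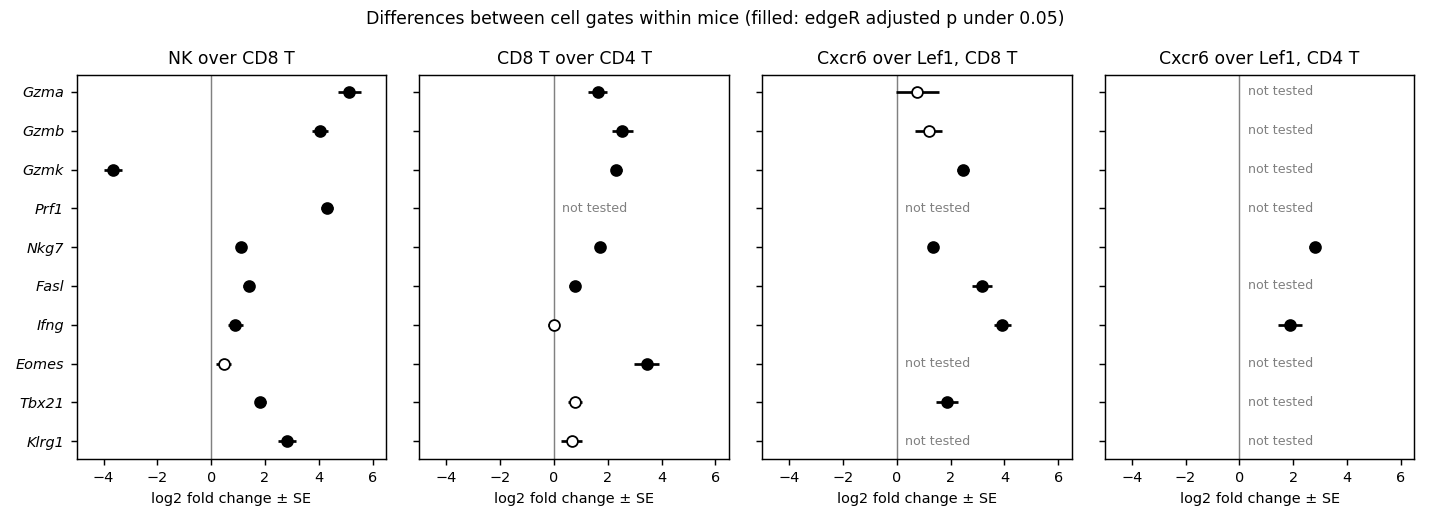
Log2 fold changes with SE (edgeR) of the 10 genes between gates of the same mice, for NK over CD8 T, CD8 T over CD4 T and Cxcr6 over Lef1 cells; filled points had an adjusted p under 0.05, and genes marked as not tested did not pass the filter on low counts. Gzmk is the only gene left of 0 in the first panel, and Gzma and Gzmb are open points in the third.

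Compared with CD4 T cells, CD8 T cells had higher levels of 6 of the 9 genes tested, where 6.09% of 6336 genes passed the test and 3.55% were higher. Eomes differed by 3.44 ± 0.470 on the log2 scale (edgeR adjusted p = 0.000389), with 22.6 to 32.4 CPM in CD8 T cells and 0 to 7.60 CPM in CD4 T cells, where 8 Eomes UMIs were found in only 2 of 5 mice. It passed the filter on low counts through the CD8 gate, so the size of its difference is imprecise. Gzmk stood at 94.6 to 185.6 CPM in CD8 T cells and 6.43 to 51.5 CPM in CD4 T cells (2.32 ± 0.211, adjusted p = 1.09e-05). Nkg7 stood at 1179 to 1874 CPM and 225 to 816 CPM (1.70 ± 0.184, adjusted p = 4.99e-05). These genes showed no overlap between the gates, and the share of all genes without overlap was not counted.

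Gzmb was also higher in CD8 T cells, at 64.9 to 444 CPM against 0 to 63.6 CPM (2.54 ± 0.400, edgeR adjusted p = 0.00142). Gzma was higher by 1.62 ± 0.349 (adjusted p = 0.0107), but its levels overlapped between gates, from 78.2 to 2216 CPM in CD8 and from 0 to 762 CPM in CD4 T cells, and the call was lost with DESeq2 (adjusted p = 0.435) and without the mouse term (0.455). Fasl was higher by 0.77 ± 0.190 (adjusted p = 0.0257), a call that was lost with DESeq2 (0.176), without the mouse term (0.0629), without saline mouse 1 (0.0815) and without FMT mouse 1 (0.129).

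Ifng levels overlapped between both T cell gates. CD8 T cells held 26.7 and 40.1 CPM in the saline mice and 101.7, 30.2 and 77.3 CPM in the FMT mice, and CD4 T cells held 48.1, 47.1, 81.3, 60.5 and 45.0 CPM in the same order. The log2 difference was -0.01 with an SE of 0.209 (adjusted p = 0.999), its sign changed under several alternatives, and it was negative in saline mice 1 and 2 and FMT mouse 2 and positive in FMT mice 1 and 3. Tbx21 (0.78 ± 0.256, adjusted p = 0.103) and Klrg1 (0.65 ± 0.390, adjusted p = 0.447) did not pass. Prf1 was not tested, with 98 UMIs in all CD8 T cells and 5 in all CD4 T cells.

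Genes read from the lists along the same contrast included Gzmm, the single other granzyme that could be tested, which was higher in CD8 T cells (3.70). Of 6 chemokine and cytokine genes tested, 4 were higher: Ccl5 (2.80), Ccl4 (2.78), Xcl1 (1.99) and Ccl3 (1.78). Of 7 receptors tested 6 were higher, led by Cd160 (3.05), Crtam (2.85), Klrd1 (2.45) and Klrc1 (2.28). The granule machinery differed in 1 of 10 genes, the cathepsin Ctsw (1.14). Il18r1, a receptor chain for interleukin-18, was lower (-1.16). All of these passed the edgeR test.

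Within CD8 T cells, the Cxcr6 and Lef1 states separated 5 of the 7 genes tested, against 18.4% of 4075 genes in all, 9.1% higher and 9.33% lower. The Cxcr6 gate held 412 cells and the Lef1 gate 452. Depth differed between them: the median was 2549 to 4270 UMIs per Cxcr6 cell and 5040 to 6751 UMIs per Lef1 cell, so the Cxcr6 cells were the shallower ones and the part of depth in these differences was not tested.

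Ifng was higher in Cxcr6 cells, through which it passed the filter on low counts, so the size of its difference is imprecise. The Cxcr6 CD8 T cells held 68.2 and 113 CPM in saline mice 1 and 2 and 238, 96.3 and 187 CPM in FMT mice 1 to 3, while the Lef1 cells held 0, 0, 14.8, 7.58 and 11.01 CPM. No values overlapped, and the log2 difference was 3.92 ± 0.321 (edgeR adjusted p = 1.08e-06). The share of all genes without overlap was not counted here either. Fasl stood at 86.3 to 153 CPM against 0 to 21.2 CPM (3.17 ± 0.358, adjusted p = 1.67e-05). Fasl also passed the filter through the Cxcr6 gate, so the size of its difference is imprecise too.

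Gzmk, at 211 to 372 CPM against 12.4 to 77.3 CPM, was higher in Cxcr6 cells by 2.46 ± 0.220 (edgeR adjusted p = 2.15e-06). A Gzmk UMI was found in 40.2% to 67.8% of Cxcr6 CD8 T cells per mouse and in 2.6% to 15.6% of Lef1 cells. With each cell thinned to 1000 UMIs, these shares were 16.2% to 35.6% and 1.3% to 7.3%. Nkg7 was higher by 1.34 ± 0.148 (adjusted p = 1.34e-05), at 1972 to 2866 CPM against 665 to 1293 CPM. Tbx21 was higher by 1.87 ± 0.409 (adjusted p = 0.00377).

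Gzma did not pass the test between these states. It stood at 341 and 169 CPM in Cxcr6 CD8 T cells of the saline mice and at 806, 1773 and 0 CPM in those of the FMT mice, against 6.21, 37.1, 140, 2195 and 655 CPM in Lef1 cells. Cxcr6 cells were higher in saline mice 1 and 2 and FMT mouse 1, and Lef1 cells in FMT mice 2 and 3. The log2 difference was 0.77 ± 0.794 (edgeR adjusted p = 0.581). It turned to -0.216 with the mouse term left out, and passed without FMT mouse 3 (1.503, adjusted p = 0.0447). Gzmb gave 1.19 ± 0.500 (adjusted p = 0.121), with a call once cells with RNA of other lineages were left out (adjusted p = 0.0105) or FMT mouse 3 was left out (0.00312). Prf1, Eomes and Klrg1 were not tested, with 43, 78 and 62 UMIs in all Cxcr6 CD8 T cells and 29, 45 and 42 in Lef1 cells.

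The lists placed the same split in context. Naive and resting T cell genes were lower in Cxcr6 CD8 T cells in 8 of 9, among them Ccr7 (-4.54), Satb1 (-3.04) and Klf2 (-2.71). All 5 tested chemokine and cytokine genes were higher, among them Ccl4 (3.70), Xcl1 (3.08), Tnfsf10 (2.25) and Tnf (1.85). Of 8 effector transcription factors 7 were higher, led by Bhlhe40 (2.42), Prdm1 (2.31), Id2 (2.28) and Ikzf3 (1.40). Granule loading and release genes were higher in 5 of 7, with Ctsw (1.02), Rab27a (0.98) and Unc13d (0.89) among them. Fas was lower (-1.86). Each named gene passed the edgeR test.

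In CD4 T cells, 2 genes could be tested between the Cxcr6 and Lef1 states, and both were higher in Cxcr6 cells, where 12.2% of 2436 genes passed, 5.13% higher and 7.1% lower. FMT mouse 3 had only 2 Cxcr6 CD4 T cells and was left out of this comparison, so it used 4 mice. Nkg7 stood at 1312 and 941 CPM in the saline mice and 1087 and 1117 CPM in FMT mice 1 and 2, against 210, 143, 61.4 and 170 CPM in Lef1 cells (2.79 ± 0.203, edgeR adjusted p = 3.45e-08). Ifng stood at 75.8, 68.8, 177 and 90.9 CPM against 49.4, 20.5, 5.58 and 31.6 CPM (1.87 ± 0.445, adjusted p = 0.00732). Ifng passed the filter on low counts through the Cxcr6 gate, so the size of its difference is imprecise. The Ifng call was lost without FMT mouse 1 (adjusted p = 0.166), with DESeq2 (0.0841) and with doublets kept (0.0900). Gzmk was found as 37 UMIs in 194 Cxcr6 CD4 T cells and as 0 UMIs in 161 Lef1 CD4 T cells of all 5 mice.

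Among list genes in the CD4 split, all 9 tested naive and resting genes were lower in Cxcr6 cells, among them Ccr7 (-4.19), Klf2 (-2.39) and Tcf7 (-1.89). The granule cathepsin Ctsw (2.68) and the chemokine Ccl5 (2.52) were higher, as was the receptor Klrk1, with 88 UMIs in Cxcr6 and 2 in Lef1 cells. Each of these passed the edgeR test.

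The number of members found together in 1 cell followed the same order of gates. After thinning every cell to 1000 UMIs, NK cells held 3.11 ± 0.542 of the 10 genes (mean of mice, SD, n = 5), Cxcr6 CD8 T cells 1.79 ± 0.217 and Lef1 CD8 T cells 0.62 ± 0.151. Cxcr6 CD4 T cells held 0.95 ± 0.0891 (n = 4 mice) and Lef1 CD4 T cells 0.12 ± 0.0508. B cells held 0.010 and proximal tubule cells 0.0043. A share of 67.7% of NK cells held 3 or more members, against 23.1% of Cxcr6 CD8 T cells.

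Within the NK gate the granule genes occurred in the same cells. Of 121 NK cells with Gzma, 94 (77.7%) held Prf1 and 76 (62.8%) held Klrg1, against 5.56% and 3.70% of the NK cells without Gzma. Gzmb was in 120 NK cells and 115 of these held Gzma. In CD8 T cells, 82 of 207 cells with Gzmb (39.6%) held Gzma, against 2.85% of the rest. Cells with more UMIs hold more genes of any kind, and these shares were not thinned.

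Gzma in T cells rested on very few cells. In CD8 T cells, 65 of 1224 cells had 10 or more Gzma UMIs, a threshold chosen after the values were seen, and these 5, 2, 21, 34 and 3 cells of saline mice 1 and 2 and FMT mice 1 to 3 held 97.2% of the Gzma UMIs. Pooled over mice, they also held 65.2% of the Gzmb UMIs and 71.7% of the Klrg1 UMIs of CD8 T cells. The Gzmb part was 22 of 78 and 16 of 63 UMIs in saline mice 1 and 2. In FMT mice 1 to 3 it was 154 of 343, 523 of 617 and 47 of 67. For Klrg1 the parts were 5 of 13, 2 of 6, 47 of 81, 82 of 91 and 3 of 3 in the same order. Gzmb was found in 64 of the 65 cells, Klrg1 in 52, Gzmk in 39 and Lef1 in 20. An NK receptor UMI was present in 47.7% of these cells and in 5.18% of the other CD8 T cells. Per mouse, their median Scrublet doublet score was 0.0417 to 0.0546, against 0.0148 to 0.0226 in the other CD8 T cells, and higher in all 5 mice. Their median depth was 3605 to 4475 UMIs per cell, against 3889 to 5404.5. Whether some were doublets was not tested beyond the removal by score. Of the 635 CD4 T cells, 8 held 97.8% of the Gzma UMIs, 2 and 1 in saline mice 1 and 2 and 1 and 4 in FMT mice 1 and 2. The 1 cell of saline mouse 2 had 9013 UMIs, that of FMT mouse 1 had 12151, and the 4 of FMT mouse 2 a median of 10115. The other CD4 T cells of these 3 mice had medians of 4598.5, 3749 and 4202.5. In saline mouse 1 the median was 3229, against 3474 in the other CD4 T cells, so these cells were not deeper in every mouse. In FMT mouse 3, 1 CD8 T cell held 118 of the 227 Gzma UMIs.

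**Figure D3:**
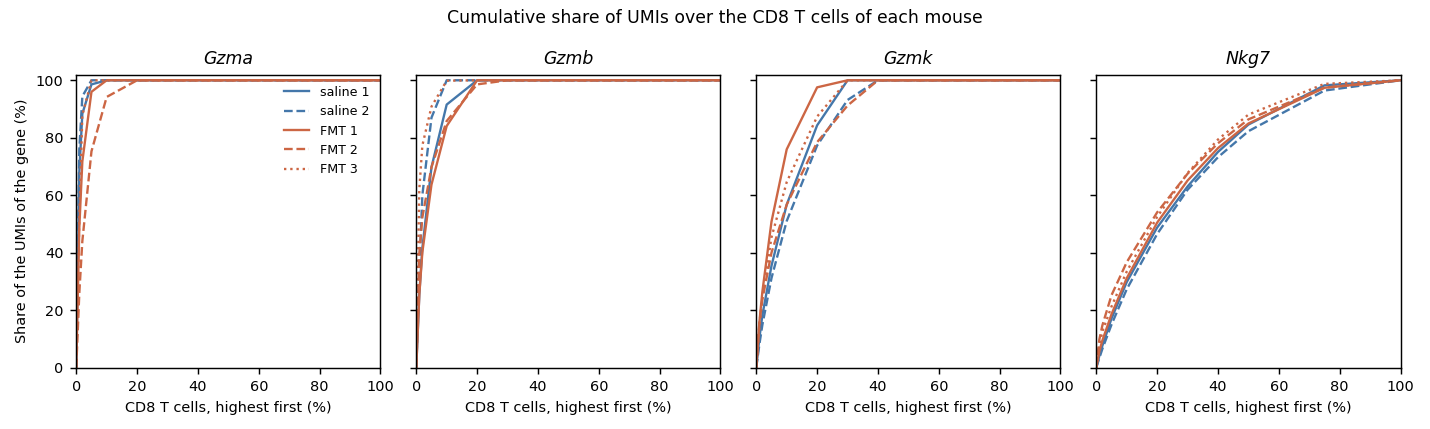
Cumulative share of the UMIs of Gzma, Gzmb, Gzmk and Nkg7 in CD8 T cells, with the cells of each mouse ranked from highest to lowest along the x axis (percent of cells, read at fixed steps); colours give the group and line styles the mouse. The Gzma curves reach the top within the first 20% of cells in all 5 mice, while the Nkg7 curves rise slowly.

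The level patterns that were most like each gene, by Spearman rho over 29 sums of gate and mouse and 2504 genes, are a description, since the sums share mice and gates. Gzma was followed by Gzmb (0.832) and Klra3 (0.821), Prf1 by Klrd1 (0.895) and Ccl5 (0.894), and Gzmb by Nkg7 (0.918) and Ccl5 (0.900). Gzmk was followed by Ctla2a (0.869) and Amica1 (0.861), and Nkg7 by AW112010 (0.960) and Efhd2 (0.95). Fasl was followed by Ptprc (0.921) and Efhd2 (0.914), Ifng by Rgs1 (0.902) and Efhd2 (0.882), Eomes by Cst7 (0.915) and Prf1 (0.894), and Tbx21 by Gzmb (0.930) and Efhd2 (0.917). Klrg1 was followed by Gzma (0.798) and Gzmb (0.795).

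Between saline and FMT mice, none of the 10 genes passed the test in CD8 T cells, CD4 T cells or NK cells. No gene at all passed in these gates with edgeR (0.0% of 7514, 6730 and 2620 genes), although 501, 331 and 172 genes had an unadjusted p under 0.05, and DESeq2 called 3, 7 and 3 genes, none of them a member, although it gave no adjusted p for 5 of the 8 members tested in CD4 T cells. The comparison asks how the transplant changed the kidney lymphocytes, and it rests on 2 against 3 mice. The series title names inosine and B cells, and states no purpose for T or NK cells.

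In CD8 T cells, 3 members had an unadjusted p under 0.05, and all 3 were higher in FMT mice. Gzma stood at 228.6 and 78.2 CPM in the saline mice and 402, 2216 and 516 CPM in the FMT mice, without overlap (log2 difference 2.70 ± 0.767, edgeR adjusted p = 0.722). Gzmb stood at 77.2 and 64.9 CPM against 142, 444 and 152 CPM, also without overlap (1.73 ± 0.484, adjusted p = 0.722). Even full separation of 2 from 3 mice cannot give an exact permutation p below 0.1, and the share of all genes without overlap was not counted. Klrg1 stood at 12.9 and 6.18 CPM against 33.6, 65.5 and 6.82 CPM, where FMT mouse 3 fell between the saline mice (1.95 ± 0.672, adjusted p = 0.722). FMT mouse 2 had the highest level of each of the 3 genes, and 34 of its 251 CD8 T cells (13.55%) had 10 or more Gzma UMIs, against 1.2% to 4.3% in the other mice. Without FMT mouse 2 the log2 difference of Gzmb was 0.97 with an edgeR adjusted p of 0.0425, and 129 genes passed in all.

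RNA of other cells was present in this gate. Proximal tubule genes were higher in all FMT mice, while neutrophil, B cell, plasma cell and monocyte genes overlapped between the groups. Proximal tubule genes, 4 of 4 detected, summed to 134 and 142 CPM in CD8 T cells of the saline mice and 206 to 844 CPM in those of the FMT mice. Neutrophil genes, 3 of 3 detected, summed to 14.4 and 55.4 CPM in saline mice and to 6.64, 11.51 and 18550 CPM in FMT mice 1 to 3. With cells holding RNA of other lineages left out, Gzma differed by 3.07, Gzmb by 2.02 and Klrg1 by 2.98 on the log2 scale (edgeR adjusted p = 0.285, 0.299 and 0.319). With T cells carrying an Ncr1 or Klre1 UMI left out, an alternative chosen after seeing the data, the differences were 3.20, 1.82 and 2.30 (adjusted p = 0.770 each).

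The other CD8 values overlapped between groups or differed little. Ifng stood at 26.7 and 40.1 CPM against 101.7, 30.2 and 77.3 CPM (edgeR adjusted p = 0.722), and it passed without FMT mouse 2 (log2 difference 1.39, adjusted p = 0.0375). Gzmk stood at 115 and 144 CPM against 94.6, 186 and 130 CPM (adjusted p = 1.00). Nkg7, Prf1, Fasl, Eomes and Tbx21 had adjusted p-values of 0.793 to 0.989. Over the 10 genes, all tested, the median log2 difference was 0.36, and over all genes tested it was -0.01.

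In CD4 T cells, 8 members were tested and 6 were lower in FMT mice. Gzma had the single unadjusted p under 0.05, with 67.0 and 68.4 CPM in saline mice and 249.2, 762 and 0 CPM in FMT mice (2.51 ± 0.898, edgeR adjusted p = 0.856). FMT mouse 3 lay below both saline mice, and with cells holding RNA of other lineages left out the log2 difference was 0.49. Gzmb stood at 63.6 and 28.9 CPM against 16.3, 31.5 and 0 CPM (adjusted p = 0.955), and Nkg7 at 816 and 624 CPM against 436, 660 and 225 CPM (0.955). In FMT mouse 3 the 0 Gzmb UMIs of 44 cells allow up to 19.3 CPM. In this gate B cell genes, 4 of 4 detected, summed to 41.2 and 62.3 CPM in saline and 90.7 to 174 CPM in FMT mice. Monocyte and macrophage genes, 4 of 4 detected, summed to 51.5 and 632 CPM against 2.63 to 8.13 CPM, and neutrophil genes, 3 of 3 detected, to 107 and 119 CPM against 2.71 to 77.2 CPM. Proximal tubule genes, at 191 and 261 CPM against 135 to 712 CPM, overlapped. The part of these other cells in the values was tested only by leaving out cells with RNA of other lineages.

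In NK cells all 8 members tested had a positive log2 difference, none past the test, beside a median of 0.34 for the members and 0.05 for all genes. Without saline mouse 2, which had 17 NK cells, Gzma (-0.107), Nkg7 (-0.113), Klrg1 (-0.071) and Ifng (-0.035) turned negative, and Gzmb turned negative without saline mouse 1 (-0.209) or FMT mouse 2. The 9 NK marker genes, all with a higher mean in FMT mice, summed to 5356 CPM in saline mouse 2 and 8923 to 11760 CPM in the other mice. B cell genes, 4 of 4 detected, summed to 313 and 340 CPM in saline and 9.86 to 110.5 CPM in FMT mice in this gate. With cells holding RNA of other lineages left out, Gzmb became -0.029 and Ifng -0.04, and the other members tested stayed positive. Beyond this, the part of the NK marker level and of B cell RNA in the values was not tested. Prf1 had the lowest p, at 313 and 233 CPM against 349, 669 and 385 CPM, without overlap (0.71 ± 0.361, edgeR adjusted p = 0.791). Fasl also did not overlap, at 106 and 98.5 CPM against 116, 178 and 138 CPM (adjusted p = 0.813), nor did Tbx21, at 130 and 107 CPM against 145, 178 and 207 CPM (0.813). With 2 against 3 mice a lack of overlap says little, and the share of all genes without overlap was not counted. Gzma, at 17680 and 11580 CPM against 15280, 21220 and 16500 CPM, did overlap (adjusted p = 0.848). A Gzma UMI was found in 60.6% and 47.1% of NK cells of the saline mice and 77.3%, 76.5% and 64.0% of those of the FMT mice.

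**Figure D4:**
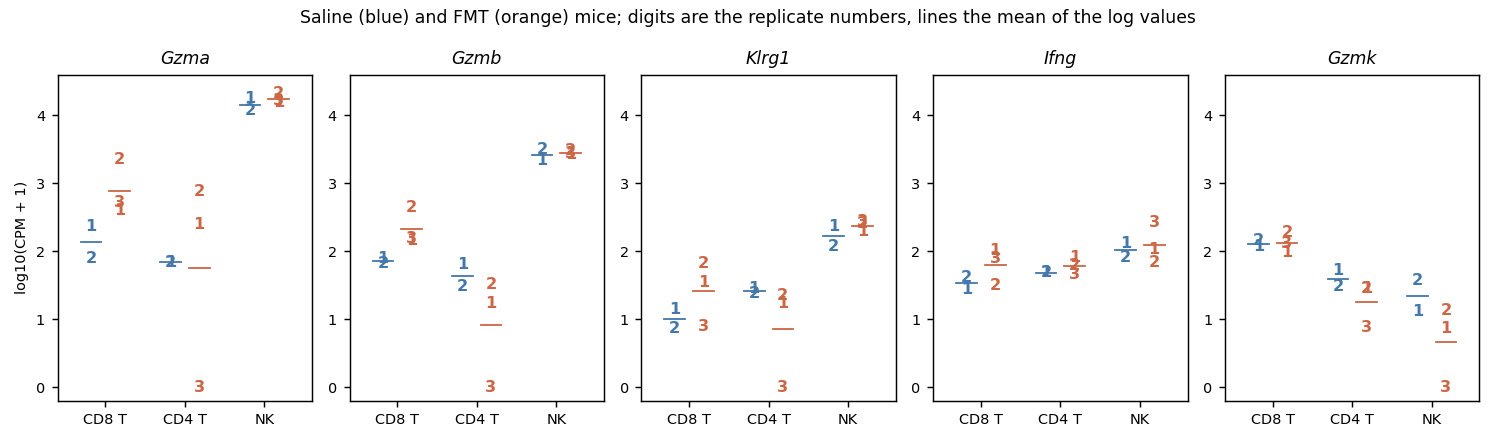
Levels of Gzma, Gzmb, Klrg1, Ifng and Gzmk as log10(CPM + 1) in CD8 T, CD4 T and NK cells; each digit is 1 mouse of the saline (blue) or FMT (orange) group, and lines are means of the log values. FMT mouse 2 is the highest for Gzma, Gzmb and Klrg1 in CD8 T cells, and FMT mouse 3 is at 0 for these genes in CD4 T cells.

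Across all T cells with Cxcr6, every member had a positive log2 difference between FMT and saline mice and none passed, where 1 of 7356 genes (0.0136%) did. The makeup of this gate differed, with CD8 T cells at 36.3% and 30.6% of it with saline against 60.7%, 43.7% and 63.6% with FMT, and CD4 T cells at 28.4% and 29.1% against 14.5%, 24.4% and 3.64%. Gzmb averaged 252 CPM in Cxcr6 CD8 and 40.2 CPM in Cxcr6 CD4 T cells, a mean that includes FMT mouse 3 with 2 such CD4 cells. The fit over the whole gate does not separate a change of makeup from a change within cells. In Cxcr6 CD8 T cells alone, Gzmb had 38 and 27 UMIs in 74 and 60 cells of saline mice 1 and 2. In FMT mice 1 to 3 it had 242, 144 and 7 UMIs in 184, 59 and 35 cells, and this gate was not tested between groups. The median of the members was 1.12, beside -0.00 for all genes tested. An unadjusted edgeR p under 0.05 was found for 523 of the 7356 genes tested and for 5 of the 10 members. These were Gzma (2.19 ± 0.568, edgeR adjusted p = 0.210), Gzmb (1.44 ± 0.373, 0.210), Ifng (1.12 ± 0.319, 0.255), Eomes (1.29 ± 0.373, 0.259) and Klrg1 (1.71 ± 0.647, 0.532). Single mice decided some of these values: without FMT mouse 3, Gzma (2.62, adjusted p = 0.00161) and Gzmb (1.72, 0.0157) passed, and without FMT mouse 2, Ifng (1.43, 0.00736) passed. In T cells with Lef1, 6 members were tested and 0 passed (0.0% of 6327 genes), and 312 genes had an unadjusted p under 0.05 while DESeq2 called 1. Gzma differed by 2.32 ± 0.826 and Gzmb by 2.105 ± 0.732 (edgeR adjusted p = 0.915 for both), and Gzmb passed without FMT mouse 1 (2.69, 0.00138).

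The difference of the FMT effect between CD8 and CD4 T cells was itself tested, with each mouse as a block, and 2 of 10 members passed, where 1.13% of 7591 genes did, 0.25% higher and 0.883% lower. For Gzmb the log2 difference between FMT and saline was 2.86 ± 0.414 larger in CD8 than in CD4 T cells (edgeR adjusted p = 0.00193). For Klrg1 it was 2.65 ± 0.486 larger (adjusted p = 0.0116). Gzmb rested on 1168 UMIs in CD8 and 92 in CD4 T cells, and Klrg1 on 194 and 59. The Klrg1 UMIs of CD4 T cells lay in 15 cells of all mice. The highest cell held 12 of 16 and 9 of 15 in saline mice 1 and 2, and 11 of 12 and 4 of 16 in FMT mice 1 and 2. The Gzmb call was lost without saline mouse 1 (adjusted p = 0.110), and the Klrg1 call without saline mouse 1 (0.0860), saline mouse 2 (0.213) or FMT mouse 2 (0.115). DESeq2 gave no adjusted p for either gene.

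Of the other members, Gzma gave 0.37 ± 0.662 (edgeR adjusted p = 0.962) and passed with cells holding RNA of other lineages left out (2.92, adjusted p = 0.000178). Nkg7 gave 0.84 ± 0.241 (edgeR adjusted p = 0.174) and passed with cells holding RNA of other lineages left out (0.95, adjusted p = 0.000975). In the same test 6 of 10 naive and resting T cell genes had a lower FMT effect in CD8 than in CD4 T cells, among them Ccr7 (-1.76), Tcf7 (-1.62) and S1pr1 (-1.28), and the chemokine Ccl5 a higher one (0.95). In CD4 T cells alone these 10 genes had a median log2 difference of 1.12 between FMT and saline mice, beside -0.02 for all genes, with 0 passing.

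The makeup of the gates did not differ past an exact permutation test, for which 2 against 3 mice allow no p below 0.1. Cxcr6 cells made up 42.5% ± 1.47 of CD4 T cells with saline (SD, n = 2) against 17.5% ± 11.4 with FMT (SD, n = 3), without overlap (two-sided exact permutation p = 0.1, adjusted over 6 shares 0.4). Lef1 cells were 15% and 19.8% of CD4 T cells in the 2 saline mice, compared with 26.8%, 32.2% and 45.5% after FMT (exact p = 0.2), a difference of 17.4 points that was 8.36 points with cells thinned to 1000 UMIs before gating. Cxcr6 cells were 34.6% and 35.7% of CD8 T cells with saline, against 37.4%, 23.5% and 35.4% with FMT (exact p = 0.9). NK cells were 5.42% and 3.43% of T and NK cells with saline, against 6.40%, 5.10% and 9.73% with FMT (exact p = 0.3), and CD8 cells were 58.3% ± 3.02 and 68.7% ± 6.15 of T cells with Cd4 or Cd8 (exact p = 0.2).

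The share of cells with a UMI of each member, thinned to 1000 UMIs per cell, had a higher mean in FMT mice for 17 of 30 pairs of gene and gate and a lower one for 13. Unthinned, it was higher in 16 of 30. At 1000 UMIs, thinning left out 8 of 125 NK cells, 12 of 842 CD8 T cells and 2 of 364 CD4 T cells of the FMT mice, and 0 of 50, 2 of 382 and 1 of 271 of the saline mice.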

How the data were processed

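Droplet libraries of kidney cells from 5 mice were deposited as UMI count matrices with 1 library per mouse. The deposited counts came from Cell Ranger with the mm10 build; the version is 2.1.1 per the submitters' processing notes and 4.0.0 per the file headers, and no source used here gives the annotation release. Per the labels' protocols, an RNA extraction kit is named as well as the droplet assay. No values were normalized by the authors.

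From these counts, barcodes had to show 200 genes or more and a mitochondrial UMI share below 50% (22591 of 26237 did), and the 883 with the highest Scrublet scores (scanpy 1.11.5), 0.8% per 1000 cells of a library, were removed as doublets. The matrices of different mice differed by a chi-square of at least 67.2 per gene, so none was a repeat deposit. UMIs were summed per mouse and gate, sums from under 10 cells were left out, and CPM is relative to all UMIs of the gate. T cell receptor and immunoglobulin genes are not used here. Tests used edgeR 4.0.16 (quasi-likelihood F test, TMM, filterByExpr) in R 4.3.3 across all genes, with Benjamini-Hochberg adjustment at 0.05 and the mouse as a block within mice; comparisons of treatment used only the gate in question. DESeq2 1.42.0 was an alternative, and the procedure was tested on simulated data. Nothing says how the mice were housed or processed, so the p-values reflect only how far these mice differed from each other. Shares of cells have exact binomial 95% intervals in the tables, which like the floor of 3 counts cover counting error only.

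The text names all 10 members, up to 4 called genes per list and comparison by size of change (more where a list is given whole), and the 2 most alike genes of mean at least 50 CPM. A gene that this rule names is not reported here. Members, lists and gates were chosen with earlier results of these data known. The threshold of 10 Gzma UMIs and the alternative without T cells carrying Ncr1 or Klre1 were chosen after seeing the data. Other alternatives were another tool, no filter on low counts, doublets kept, under 20% mitochondrial UMIs, cells with RNA of other lineages left out, at least 3 Cd3 UMIs, at least 20 cells per library, other thinning, the block, and each mouse left out. Python 3.11.15, numpy 2.4.6, scipy 1.17.1, pandas 2.3.3 and matplotlib 3.10.9 were used.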

Additional observations from a re-analysis of the deposited data

Results flagged for a closer look

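The FMT effect on Gzmb differed between CD8 and CD4 T cells by 2.86 on the log2 scale, which passed the edgeR test of the difference itself (adjusted p = 0.00193). The FMT effect on Klrg1 differed by 2.65 (edgeR adjusted p = 0.0116), and its CD4 side rested on 15 cells with a Klrg1 UMI. The Gzmb call was lost without saline mouse 1 (adjusted p = 0.110) and the Klrg1 call without saline mouse 1 (0.0860), saline mouse 2 (0.213) or FMT mouse 2 (0.115). Cxcr6 cells made up 42.5% of CD4 T cells in saline and 17.5% in FMT mice, and the part of this in either difference was not tested. The Klrg1 level in CPM was lower in CD8 than in CD4 T cells in both saline mice and higher in FMT mice 1 and 2, and the mean difference was 38.5 CPM larger in FMT mice. FMT mouse 3 had 3 Klrg1 UMIs in CD8 T cells and 0 in 44 CD4 T cells, which allows up to 19.3 CPM, so its direction is not shown, and the change of sign was not tested.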

How the results depend on the processing

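Over the 80 tested values of single members and their alternatives, 920 fits kept direction and side of the threshold, 30 gained a call, 17 lost one and 51 changed sign. The changes of sign were in 19 values, of which 0 had passed the test. Fits without an adjusted p from DESeq2 are not counted. The number of genes called between FMT and saline mice depended on the setting. In CD8 T cells (0 called) it was 3 with DESeq2, 228 with no filter on low counts, 1 with cells holding RNA of other lineages left out and 1 with the replicate block. In CD4 T cells (0 called) it was 7, 97 and 5 with the first 3 of these and 0 with the replicate block. In NK cells (0 called) it was 3 with DESeq2, 125 with no filter, 1 with at least 20 cells per library and 0 with the replicate block. In Cxcr6 T cells (1 called) it was 31 with DESeq2, 216 with no filter, 15 with the replicate block, and 0 with doublets kept, with other lineages left out or with at least 3 Cd3 UMIs. In Lef1 T cells (0 called) it was 1 with DESeq2, 72 with no filter and 12 with the replicate block. Without a filter, members that passed were Gzma, Gzmb, Klrg1 and Ifng in CD8 T cells, Gzma in CD4 T cells, Gzma, Gzmb, Ifng and Klrg1 in Cxcr6 T cells, and Gzma and Gzmb in Lef1 T cells. Leaving out 1 mouse gave 0 to 129 calls in CD8 T cells (129 without FMT mouse 2), 0 to 13 in CD4 T cells (13 without saline mouse 1), 0 to 17 in NK cells (17 without FMT mouse 2), 0 to 124 in Cxcr6 T cells (124 without FMT mouse 2) and 0 to 4 in Lef1 T cells.

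Within mice, CD8 against CD4 T cells gave 635 calls with no filter and 228 with the mouse term left out, NK against CD8 T cells 1833 with no filter and 1056 with the mouse term left out, and Cxcr6 against Lef1 cells 451 with DESeq2, 1132 with no filter and 632 with the mouse term left out in CD8 T cells. In CD4 T cells Cxcr6 against Lef1 gave 172 with DESeq2, 166 with doublets kept and 208 with the mouse term left out. The difference of the FMT effect gave 195 with no filter. Leaving out 1 mouse gave 244 to 456, 831 to 1221, 449 to 779, 153 to 307 and 18 to 126 calls in these comparisons in the same order. The cause of these changes was not tested. Shares moved by 1 mouse left out ranged, in points between FMT and saline, from 1.32 to 3.65 for NK cells, 7.44 to 13.6 for CD8 cells, -5.72 to 1.23 and -7.54 to 0.40 for Cxcr6 and Lef1 cells of CD8 T cells, and -29.3 to -18.5 and 12.1 to 21.4 for those of CD4 T cells. With each cell thinned to 1000 UMIs before gating, the Cxcr6 share of CD8 T cells changed direction to 1.44 (exact permutation p = 0.7) and the Lef1 share to 0.327 (p = 0.9), while the Lef1 share of CD4 T cells kept its direction at 8.36 (p = 0.2).

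Replicate numbers only name separate mice. Deviations of same-numbered mice correlated across genes at -0.177 and -0.036 in CD8 T cells, -0.218 and -0.182 in CD4 T cells and -0.007 and 0.105 in NK cells, for numbers 1 and 2. With the replicate block, Gzma (2.63, edgeR adjusted p = 0.00625) and Gzmb (1.72, 0.0396) passed in Cxcr6 T cells. Prf1, Eomes and Klrg1 had 98, 171 and 194 UMIs in all CD8 T cells, which limits the precision of their values, and FMT mouse 3 had 44 CD4 T cells.

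The changes of sign were as follows, as log2 differences. Between FMT and saline in CD8 T cells, Gzmk became 0.011 with DESeq2, 0.012 with no filter, 0.027 with other lineages left out and 0.009 with at least 3 Cd3 UMIs, Fasl 0.025 with other lineages left out, and Prf1 -0.179 with the replicate block. Tbx21 in CD4 T cells became 0.059 with the replicate block. In NK cells Gzmb became -0.142 with doublets kept and -0.029 with other lineages left out, Ifng -0.04 with other lineages left out and -0.329 with the replicate block, and with at least 20 cells per library Klrg1 became -0.071, Nkg7 -0.113, Ifng -0.035 and Gzma -0.107. In Lef1 T cells Nkg7 became -0.028 with doublets kept, -0.055 with other lineages left out and -0.09 without T cells carrying Ncr1 or Klre1. Ifng in CD8 against CD4 T cells became 0.01 with no filter, 0.005 with under 20% mitochondrial UMIs, 0.043 with at least 3 Cd3 UMIs and 0.145 with the mouse term left out, and Gzma in Cxcr6 against Lef1 CD8 T cells -0.216 with the mouse term left out.

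With 1 mouse left out, values that changed sign ranged in CD8 T cells from -0.155 to 0.072 for Fasl, -0.195 to 0.553 for Prf1 and -0.332 to 0.244 for Gzmk, and in CD4 T cells from -0.778 to 0.044 for Fasl and -0.366 to 0.073 for Tbx21. In NK cells they ranged from -0.071 to 0.947 for Klrg1, -0.113 to 0.836 for Nkg7, -0.299 to 0.692 for Ifng, -0.209 to 0.297 for Gzmb and -0.107 to 0.537 for Gzma. In Lef1 T cells they ranged from -0.229 to 0.148 for Nkg7 and -0.462 to 0.109 for Eomes, and Ifng in CD8 against CD4 T cells from -0.25 to 0.216. For the difference of the FMT effect they ranged from -0.107 to 0.573 for Fasl, -0.082 to 0.779 for Ifng, -3.49 to 4.78 for Eomes, -0.422 to 1.12 for Gzma and -0.04 to 1.16 for Gzmk. The causes were not tested.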
